A study of Mus musculus with 4 samples.

Results

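The 9 genes described here encode chemokines of the thymus and their scavenger receptor: Ccl21a, Ccl19, Ccl25, Cxcl12, Ccl17, Ccl22, Ccl20, Cxcl10 and Ackr4. They were taken from 21521 protein-coding genes of the mouse mm10 genome. A peak was assigned to a gene when its midpoint lay inside the RefSeq interval of the gene or within 10 kb of it. The peaks came from CUT&RUN, in which permeabilised cells are given an antibody and then a nuclease fused to protein A, which releases the DNA beside the bound antibody. The 4 libraries were mTEChi replicates 1 and 2 and mTEClo replicates 1 and 2, each from medullary thymic epithelial cells of mice aged 4 to 5 weeks, with the genotype Trp53-WT and 500000 cells per condition. In common usage mTEChi cells are mature and rich in surface MHC class II, and mTEClo cells carry little of it and include less mature cells. Titles of the samples name an antibody against p53, the protocol of the same samples one against BAF155, and which protein the peaks mark is not settled by the labels. No library with a control antibody was analysed here, the sequencing depth is unknown, and the labels do not say whether mice were pooled or whether replicates came from separate mice.

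Chemokines are small secreted proteins that guide migrating cells through G protein-coupled receptors. In the thymus, Ccl21a and Ccl19 encode ligands of CCR7, which draws positively selected thymocytes into the medulla, and Ccl25 and Cxcl12 encode the ligands of CCR9 and CXCR4 on thymic progenitors and immature thymocytes. CCL17 and CCL22 bind CCR4, CCL20 binds CCR6, and CXCL10, an interferon-induced chemokine, binds CXCR3. Ackr4 encodes an atypical receptor that takes up CCL19, CCL21 and CCL25 without signalling through G proteins. CUT&RUN peaks say nothing of how strongly these genes are expressed.

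The lists held 73510 and 85308 peaks in mTEChi replicates 1 and 2 and 69359 and 89809 peaks in mTEClo replicates 2 and 1. Each peak is an interval of 301 bp centred on a summit, with a score from the authors' peak caller on a −log10 scale (of p or of q). Scores rank peaks within a list only, and ranks from lists of different lengths show no change. Of markers chosen for the labelled cells, all 5 of mature mTEC (Aire, Cd80, Cd86, Cd40 and H2-Aa) and all 4 of epithelium (Epcam, Foxn1, Krt5 and Krt8) had a peak in all 4 libraries. So had 4 of 6 thymocyte genes, 2 of 4 B cell or myeloid genes, 1 of 3 fibroblast genes and 2 of 2 endothelial genes. Of all protein-coding genes, 60.6% had a peak in all 4 libraries. With lists this small and a share this high over all genes, these counts cannot tell the labelled cells from other types. The part of other cells in the peaks below was not tested.

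The sequences that bear on the results lie at the starts of Cxcl10, Ccl25 and Ccl21a, and are shown from RefSeq (GRCm38.p6, the mm10 assembly), 5′ to 3′ on the strand of the named gene. All 9 genes matched the RefSeq table of starts, with 10 starts in all because Ccl25 has 2. The first sequence is the 250 bases before the Cxcl10 start (chr5:92348890-92349139, minus strand), a stretch that a peak overlaps in each of the 4 libraries. Capitals mark kB sites, the binding motif of NF-kB factors, and an interferon-stimulated response element.
Cxcl10: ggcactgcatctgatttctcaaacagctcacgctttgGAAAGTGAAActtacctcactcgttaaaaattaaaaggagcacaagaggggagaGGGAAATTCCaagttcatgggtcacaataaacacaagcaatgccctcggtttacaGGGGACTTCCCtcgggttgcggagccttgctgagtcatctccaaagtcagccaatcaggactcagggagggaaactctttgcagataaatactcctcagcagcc
The second is the stretch of 64 bases between the RefSeq intervals of Elavl1 and Ccl25 (chr8:4325141-4325204, plus strand), which a peak of each mTEClo library covers; the mTEChi replicate 1 peak of the same site begins at 4325206, just past it.
Elavl1 to Ccl25: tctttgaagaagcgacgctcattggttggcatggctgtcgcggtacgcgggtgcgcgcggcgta
The third is the last 60 bases before the Ccl21a start (chr4:42773992-42774051, minus strand), shown because the same 60 letters stand before 3 other RefSeq genes.
Ccl21a: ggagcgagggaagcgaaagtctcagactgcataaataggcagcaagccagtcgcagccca

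Between 5 and 7 of the 9 genes carried a peak, depending on the library. A peak was found at 6 and 7 of the 9 in mTEChi replicates 1 and 2, beside 75.6% and 79.3% of all protein-coding genes, and 68.1% and 72.5% of the 14825 genes no longer than the longest member (34816 bp). In mTEClo replicates 1 and 2 it was 7 and 5, beside 80.6% and 75.2% of all genes and 74.8% and 68.2% of the shorter ones. The mean was 6.5 ± 0.707 members in mTEChi and 6 ± 1.41 in mTEClo (SD, n = 2 each), a difference of 0.5 that was within the spread between replicates. Ccl25, Cxcl12, Ccl17, Cxcl10 and Ackr4 had a peak in all 4 libraries, which makes 5 of 9 members, beside 60.6% of all genes and 50.1% of the shorter ones. With Ccl20, 6 of 9 had one in both mTEChi libraries (68.8% of all genes, 59.3% of the shorter ones), and 5 of 9 in both mTEClo libraries (70.3% and 62.1%). No member had a peak in both libraries of one state and in neither of the other, and that class held 1.39% of all genes for mTEChi and 1.5% for mTEClo (1.54% and 2.04% of the shorter ones). Ccl19 had none in any library, a class of 9.36% of all genes and 12.6% of the shorter ones. Both Ccl19 and Ccl21a lie in a stretch of 1.02 Mb without a summit in any list, described below. The mTEChi-only class held 1 member without mTEChi replicate 1 and 1 without mTEClo replicate 1, and the mTEClo-only class 1 without mTEClo replicate 2.

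**Figure D1:**
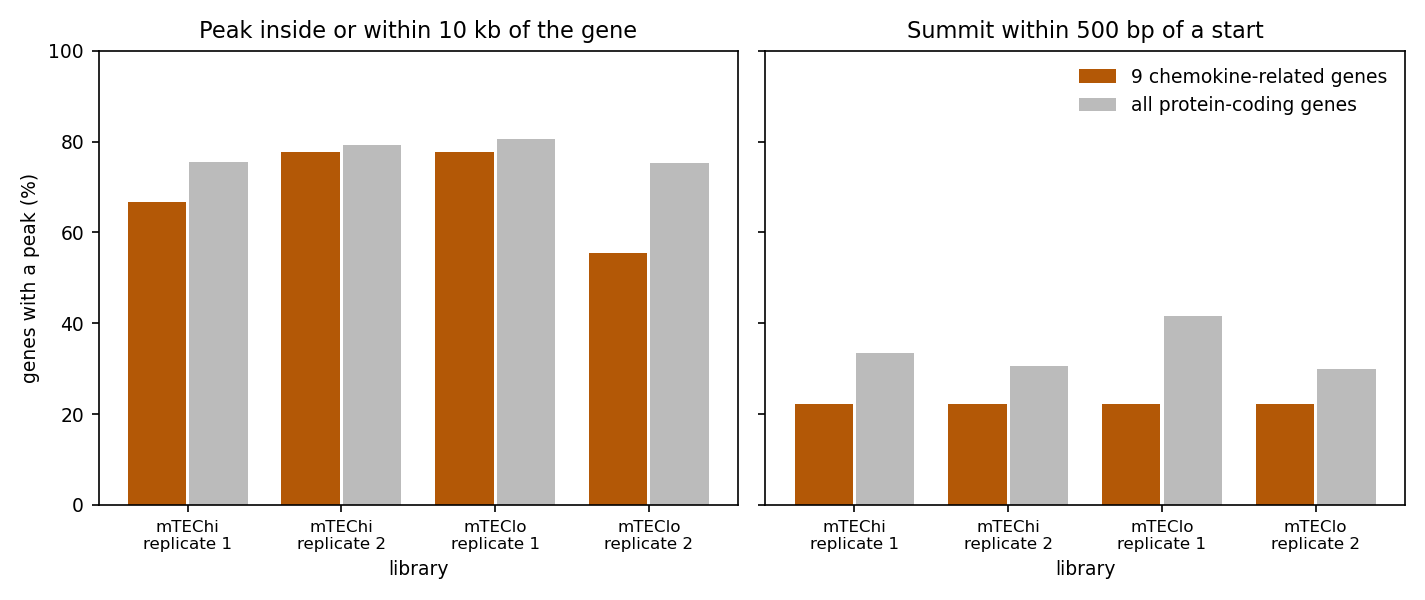
Share of genes (%) with a peak inside or within 10 kb (left) and with a summit within 500 bp of a RefSeq start (right), per library, for the 9 chemokine-related genes and all protein-coding genes. On the right, the bars of all genes cover the 17274 genes with a listed start. The member bars stand at 6, 7, 7 and 5 of 9 genes on the left and at 2 of 9 on the right. Each stands below the bar of all genes, which on the left includes genes longer than any member. The 9 genes include Ccl19 and Ccl21a, which lie in a 1.02 Mb stretch without a summit in any list. Of genes no longer than the longest member, 68.1%, 72.5%, 74.8% and 68.2% had such a peak on the left (not drawn). The 7 of 9 lie above 72.5% and 74.8%, while 6 and 5 of 9 lie below 68.1% and 68.2%.

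The windows of the 9 genes held 20 and 14 peaks in mTEChi replicates 1 and 2 and 16 and 11 in mTEClo replicates 1 and 2. That is 17 ± 4.24 in mTEChi and 13.5 ± 3.54 in mTEClo (SD, n = 2 each), and the difference of 3.5 peaks was smaller than the spread of the mTEChi pair. It was 0.5 without mTEChi replicate 1, 6.5 without mTEChi replicate 2, 6 without mTEClo replicate 1 and 1 without mTEClo replicate 2. Per 100 kb of window and library the members ranged from 0 at Ccl19 to 13.5 peaks at Cxcl10, with a median of 5.47, beside a median of 4.6 over all genes and 4.99 over genes no longer than the longest member. The farthest peak counted lay 9395 bp outside its gene (Cxcl10, mTEClo replicate 1) and the nearest one not counted lay 10157 bp away (Ccl17, mTEClo replicate 2). With 2 libraries against 2, the smallest p a two-sided exact permutation test can give is 0.33, so no single gene could pass a threshold of 0.05, whatever its counts.

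**Figure D2:**
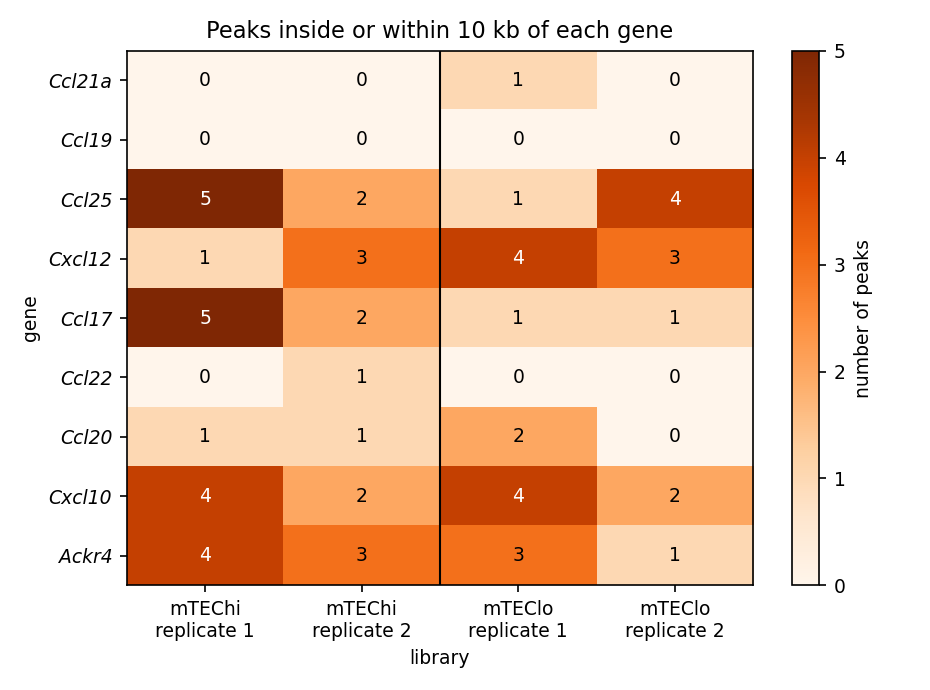
Number of peaks inside or within 10 kb of each of the 9 genes (rows) in each library (columns, mTEChi left of mTEClo). Ccl17 was the 1 gene with more peaks in both mTEChi libraries (5 and 2) than in either mTEClo library (1 and 1), and Ccl19 had none.

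Presence in a window did not mean that libraries shared a site. Overlapping peaks of the 4 lists (by at least 1 bp) were merged, which gave 44 sites at the members. Of these, 35 (79.5%) were seen in 1 library, 4 (9.09%) in 2, 3 (6.82%) in 3 and 2 (4.55%) in all 4. Over the 159822 sites within 10 kb of any protein-coding gene the shares were 82.8%, 10.8%, 3.70% and 2.75%. The pair of sites in all 4 libraries lay at Cxcl10 and Ccl17. One site was seen in both mTEChi libraries alone, downstream of Ccl25, and one in both mTEClo libraries alone, upstream of Ackr4. A site in all 4 libraries lay within 10 kb of 26.2% of all genes (24.6% of the shorter ones), an mTEChi-only site near 15% (9.85%) and an mTEClo-only site near 20.4% (14.2%). The member counts of 2, 1 and 1 of 9 are near those shares. When summits had to lie within 75 bp to count as shared, no member site was left in all 4 libraries or in both mTEChi libraries alone. The mTEClo-only site at Ackr4 was lost too, and the 2 mTEClo-only sites under that limit lay at Ccl25 and Cxcl10.

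**Figure D3:**
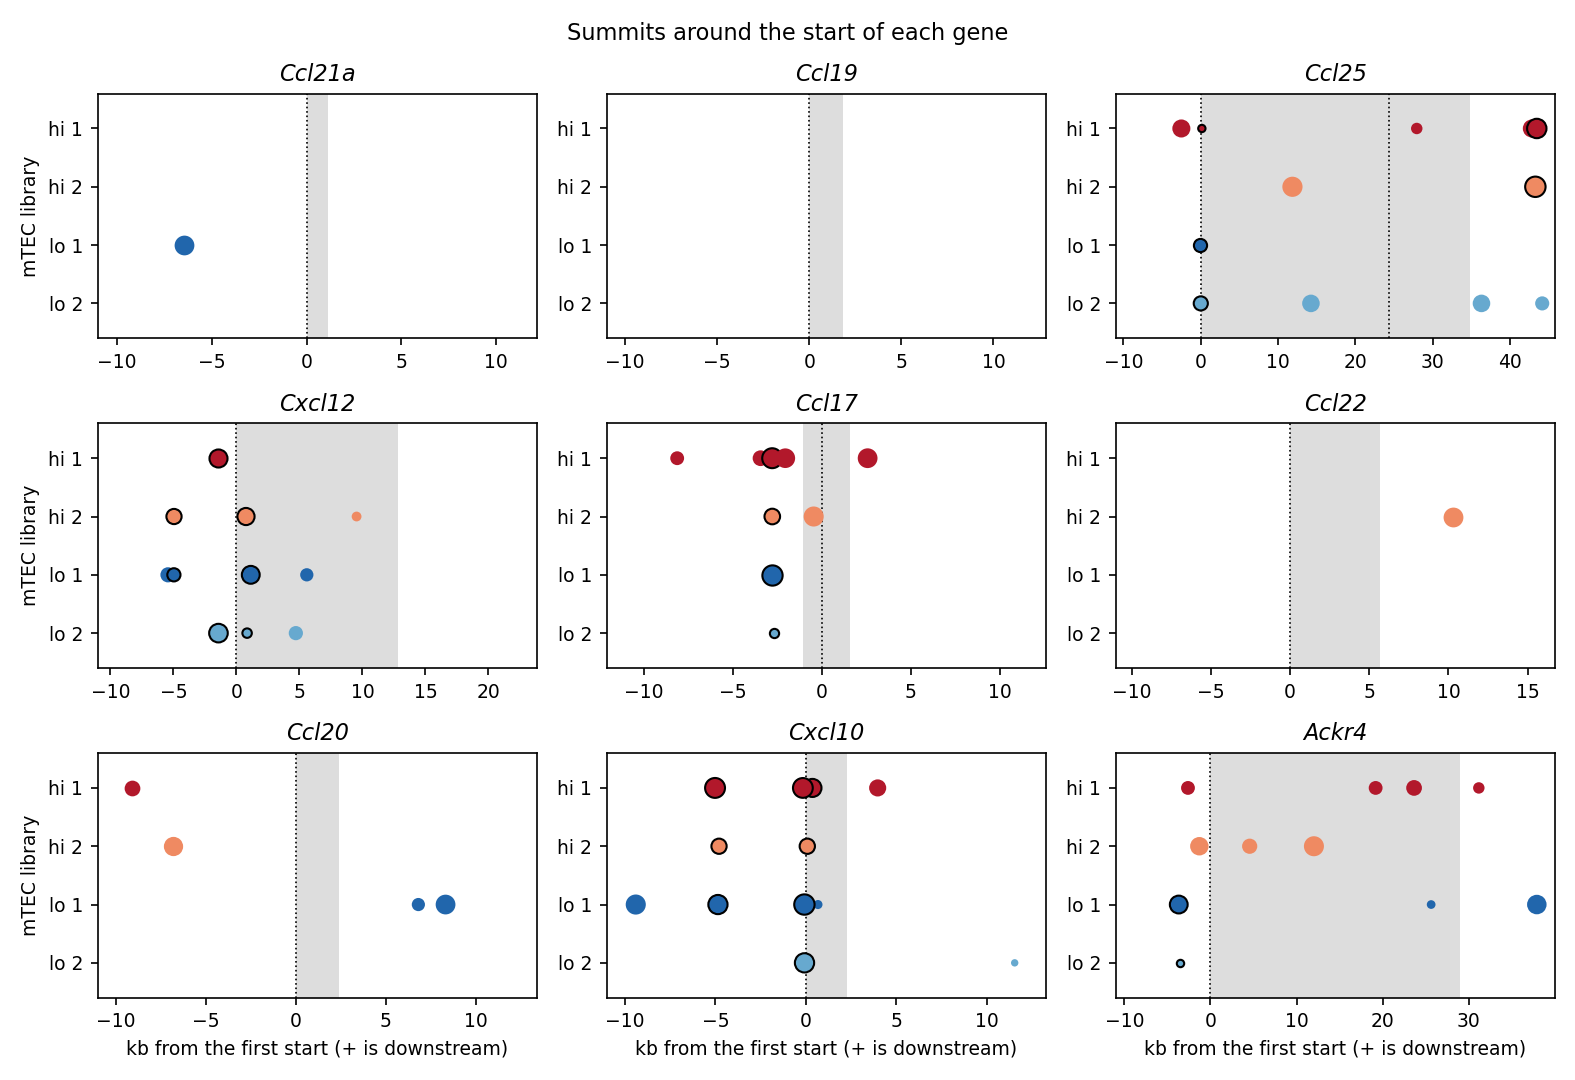
Summits of each library (rows: mTEChi replicates 1 and 2 as hi 1 and hi 2, mTEClo replicates 1 and 2 as lo 1 and lo 2) by distance in kb from the first RefSeq start of each gene, downstream to the right. Grey bands are gene intervals, dotted lines RefSeq starts, dot size the within-list percentile of the score and black outlines sites seen in more than 1 library. Outlined dots stand in 1 column through all 4 rows at Ccl17 and Cxcl10, and at Ackr4 in the mTEClo rows alone.

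The CCR7 ligand genes Ccl19 and Ccl21a were almost bare of peaks in both states. Ccl19 (chromosome 4, 42754525 to 42756365) had its nearest summit 133601 and 162519 bp away in mTEChi replicates 1 and 2 and 24086 and 42499 bp away in mTEClo replicates 1 and 2. Ccl21a (chromosome 4, 42772860 to 42773991) had 1 peak, in mTEClo replicate 1, 6460 bp upstream of its start, with a score of 7.39 that was at or above 91.1% of that list. Both genes belong to a duplicated family: RefSeq places 5 Ccl21 family genes and 3 Ccl19 family entries, 2 of them transcribed pseudogenes, between 41903613 and 42773991. No list held a summit in this interval of 0.87 Mb, whereas chromosome 4 as a whole had 29.1 and 34.4 peaks per Mb in mTEChi replicates 1 and 2 and 37.2 and 29.1 in mTEClo replicates 1 and 2. The stretch without a summit in any list ran for 1.02 Mb, from 41762850 to 42780451. Of 317635 gaps between neighbouring summits of the pooled lists, 18 were longer, and the median gap was 3.75 kb.

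The starts of 3 copies were compared with that of Ccl21a. Ccl21b and the Ccl19 family entries were not part of the comparison. Over the 249 letters compared before the start, Ccl21d differed from Ccl21a at 1 letter, and Gm13304 and Gm10591 at 2 letters each. The 60 letters printed above for Ccl21a stand unchanged in all 3 of them. How the authors treated reads that match several copies is not given in the sources used here, and its part in the missing peaks was not tested. A lack of peaks at Ccl19 and Ccl21a is therefore a statement about these lists, not about the antibody target at these genes.

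**Figure D4:**
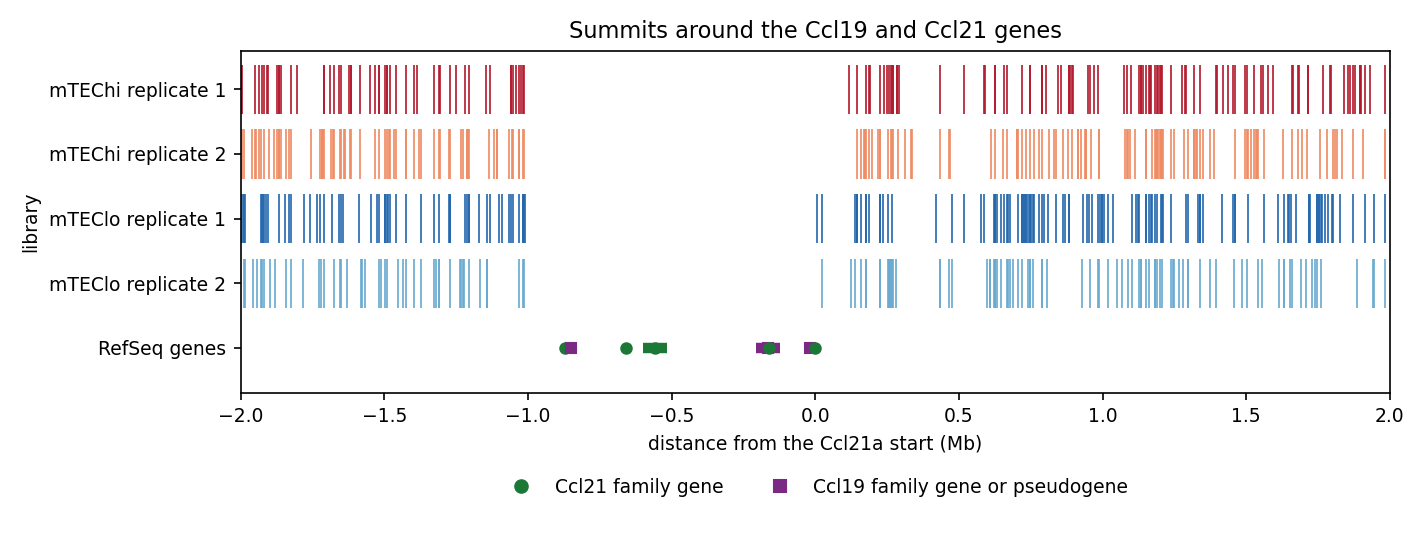
Summits of each library as vertical ticks, by distance in Mb from the Ccl21a start (positive towards higher coordinates), above the positions of Ccl21 family genes (circles) and Ccl19 family genes or pseudogenes (squares). All 4 rows are empty for 1.02 Mb, and the family genes lie inside that gap.

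Ccl25, the gene of the CCR9 ligand (chromosome 8, 4325205 to 4360020), had 5 and 2 peaks in mTEChi replicates 1 and 2 and 1 and 4 in mTEClo replicates 1 and 2. The ranges overlap, and the means were 3.5 ± 2.12 in mTEChi and 2.5 ± 2.12 in mTEClo (SD, n = 2 each; two-sided exact permutation test, p = 0.667). At its first start, 1 site was seen in mTEChi replicate 1, with a summit 146 bp downstream and a score of 2.02, and in mTEClo replicates 1 and 2, with summits 65 bp upstream and 9 bp downstream and scores of 3.62 and 3.48. These are low scores, at or above 4.85% of peaks in the mTEChi list and 35.7% and 42.2% in the mTEClo lists. The first Ccl25 start lies 110 bp from the start of Elavl1, which encodes an RNA-binding protein and is read in the opposite direction, so peaks over the printed stretch cannot be assigned to one of the 2 genes. Of the 5 peaks of mTEChi replicate 1, 1 with a score of 4.56 lay inside the Elavl1 interval, 2501 bp outside Ccl25. At the second Ccl25 start no summit lay within 500 bp.

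The best-scored Ccl25 peak of each mTEChi library lay behind the gene, at a site not seen in mTEClo. Replicate 1 had a summit 8675 bp and replicate 2 a summit 8492 bp past the gene interval (chr8:4368362-4368845 as a merged site), with scores of 6.13 and 8.53, at or above 87.5% and 97.7% of their lists. The summits stood 183 bp apart. The nearest mTEClo peak there, in replicate 2, lay 9378 bp past the gene with a score of 3.48 and did not overlap the site, and mTEClo replicate 1 had no peak within 10 kb of that end.

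Cxcl12, the gene of the CXCR4 ligand (chromosome 6, 117168535 to 117181368), had 1 and 3 peaks in mTEChi replicates 1 and 2 and 4 and 3 in mTEClo replicates 1 and 2 (mTEChi minus mTEClo -1.5; two-sided exact permutation test, p = 0.667). The values touch at 3. Its 3 sites seen in more than 1 library each held peaks of both states. Just inside the gene, mTEChi replicate 2 had a summit 762 bp after the start, and mTEClo replicates 1 and 2 had summits 1141 and 850 bp after it. Upstream, mTEChi replicate 1 and mTEClo replicate 2 had summits 1435 and 1422 bp before the start, 13 bp apart, with scores of 4.56 and 5.12. Farther upstream, mTEChi replicate 2 and mTEClo replicate 1 had summits 4949 and 4958 bp before the start, 9 bp apart. No summit lay within 500 bp of the Cxcl12 start in any library.

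The CCR4 ligand genes differed from each other although they are close neighbours on chromosome 8. Ccl17 (94809380 to 94812038) had 5 and 2 peaks in mTEChi replicates 1 and 2 and 1 and 1 in mTEClo replicates 1 and 2, with means of 3.5 ± 2.12 and 1 ± 0 (SD, n = 2 each). The groups do not overlap, and the difference of 2.5 peaks had the smallest p the exact permutation test allows (two-sided, p = 0.33). Of all genes, 9.2% had more peaks in both mTEChi libraries than in either mTEClo library (6.82% of the shorter ones), and 1 of 9 members is near that share. The reverse held for 10.1% of all genes, 9.66% of the shorter ones and 0 members. The difference was 4 peaks without mTEChi replicate 2 and 1 without mTEChi replicate 1.

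Behind these counts stood 1 shared site and 5 peaks of single mTEChi libraries. The shared site (chr8:94807515-94807922) had summits 2780 and 2774 bp before the Ccl17 start in mTEChi replicates 1 and 2, and 2788 and 2681 bp before it in mTEClo replicates 1 and 2. Its scores were 8.31 and 3.81 in mTEChi and 9.94 and 2.62 in mTEClo, at or above 92.7% and 53.4% of the mTEChi lists and 96.2% and 13.1% of the mTEClo lists. The site thus ranked high in the first replicate of each state and lower in the second. The other mTEChi peaks were 4 of replicate 1, of which the best lay 995 bp past the gene with a score of 7.26, and 1 of replicate 2, inside the gene interval 449 bp before the start, with a score of 6.40. Ccl22 (94745684 to 94751388) had 1 peak, in mTEChi replicate 2, 4574 bp past the gene, with a score of 5.93.

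Ccl20, the gene of the CCR6 ligand (chromosome 1, 83116766 to 83119167), had 1 and 1 peaks in mTEChi replicates 1 and 2 and 2 and 0 in mTEClo replicates 1 and 2. No pair of them overlapped. The mTEChi summits lay 9086 and 6797 bp upstream of the start, and the mTEClo replicate 1 summits 6819 and 8330 bp downstream of it. Their scores were 3.62 and 4.88 in mTEChi and 3.62 and 7.39 in mTEClo replicate 1. All 4 summits thus lay at least 4418 bp outside the gene, and each was seen in 1 library. The downstream side rests on mTEClo replicate 1 alone, so a difference in side between the states is not shown.

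Cxcl10, the gene of the CXCR3 ligand (chromosome 5, 92346638 to 92348889), had the densest cover of the 9 genes, with 4 and 2 peaks in mTEChi replicates 1 and 2 and 4 and 2 in mTEClo replicates 1 and 2. The counts of the states were the same (two-sided exact permutation test, p = 1). The site at its start (chr5:92348375-92349204) was seen in all 4 libraries, and Cxcl10 was the only member with a summit within 500 bp of a start in every library. The mTEChi summits lay 165 bp before and 364 bp after the start in replicate 1 and 79 bp after it in replicate 2. In mTEClo they lay 81 and 75 bp before the start in replicates 1 and 2, only 6 bp apart. Scores of the best peak of the site were 7.46 and 3.50 in mTEChi and 11.1 and 5.52 in mTEClo, at or above 91.3% and 51.0% of the mTEChi lists and 97.1% and 86.1% of the mTEClo lists.

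In the printed Cxcl10 sequence, kB matches begin 159, 104 and 103 bases before the start, the last 2 overlapping, and a response element match begins 213 bases before it. The mTEClo summits lay between the kB matches and the start. A second Cxcl10 site, about 5 kb upstream (chr5:92353535-92354055), had summits 5016 and 4796 bp before the start in mTEChi replicates 1 and 2, with scores of 8.16 and 3.40, and 4856 bp before it in mTEClo replicate 1, with a score of 6.66. No peak of mTEClo replicate 2 overlapped it. All Cxcl10 peaks also lie inside the long interval of Art3, an ADP-ribosyltransferase gene that spans Cxcl10.

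Ackr4, the scavenger receptor gene (chromosome 9, 104097682 to 104126643), had 4 and 3 peaks in mTEChi replicates 1 and 2 and 3 and 1 in mTEClo replicates 1 and 2 (difference 1.5; two-sided exact permutation test, p = 0.667). The values touch at 3. Although every library had a peak, no Ackr4 site was seen in more than 2 libraries, and the 7 mTEChi peaks fell at 7 separate sites. The 1 shared site was upstream (chr9:104130050-104130471), with summits 3678 and 3557 bp before the start in mTEClo replicates 1 and 2, 121 bp apart, and no mTEChi peak over it. Its scores were 5.12 and 2.23, at or above 72.3% and 5.10% of their lists. The nearest mTEChi summits lay 2608 bp (replicate 1) and 1289 bp (replicate 2) before the start, with scores of 3.19 and 4.34. The whole of Ackr4 lies inside the interval of Acad11, an acyl-CoA dehydrogenase gene, and the shared site lay 2544 to 2665 bp from the end of Acad11, closer than to Ackr4.

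Summits beside the starts of the 9 genes were counted as well. A summit lay within 500 bp of a start for 2 of 9 members in each library, beside 33.5% and 30.6% of 17274 genes with a listed start in mTEChi replicates 1 and 2 and 41.7% and 29.9% in mTEClo replicates 1 and 2. The 2 were Cxcl10 and Ccl25 in mTEChi replicate 1 and in both mTEClo libraries, and Cxcl10 and Ccl17 in mTEChi replicate 2. A start marked in all 4 libraries was found for 1 member (15.5% of the 17274 genes), and 6 of 9 had no such summit in any library (44.8% of the 17274 genes). With 9 genes, each count is only 1 or 2 genes from the share of the 17274 genes. Among the 6 genes without such a summit, Ccl19 and Ccl21a lie in the 1.02 Mb stretch that is empty in every list.

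The rank of the best peak differed widely between members. Among members with a peak, the median share of the list at or below the best score was 81.0% and 91.7% in mTEChi replicates 1 and 2, beside 85.1% and 86.1% over all genes with a peak. In mTEClo replicates 1 and 2 it was 91.1% and 70.1%, beside 88.5% and 86.0%. Over genes with a peak and no longer than the longest member, the median was 84.6% and 86.1% in mTEChi replicates 1 and 2. For the same genes it was 84.8% and 79.4% in mTEClo replicates 1 and 2. The highest values were 97.7% at Ccl25 in mTEChi replicate 2 and 97.1% at Cxcl10 in mTEClo replicate 1, and the lowest was 5.10% at Ackr4 in mTEClo replicate 2.

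Motifs from 250 bases before to 50 after each start were searched on both strands. The decamer of the p53 response element was found at 0 of 10 member starts, beside 8.36% of 32851 RefSeq starts, and a pair of decamers with 0 to 13 bases between them at 0 of 10, beside 0.0731%. A kB site was found at 2 of 10, beside 8.46%. At Cxcl10 these were the 3 matches described, of which 2 overlap, and at Ccl20 there was 1.
Cxcl10, 159 bases before the start: GGGAAATTCC
Cxcl10, 104 bases before the start: GGGGACTTCC
Ccl20, 80 bases before the start: GGAAAACCCC
The interferon-stimulated response element, searched as TTTC, any 2 bases and TTTC, was found at 2 of 10 starts, beside 3.44% of all.
Cxcl10, 213 bases before the start: GAAAGTGAAA
Ccl19, 208 bases before the start: GAAAGTGAAA
Both matches read on the other strand, and their letters are the same. Only the Cxcl10 start carried peaks, but the Ccl19 start lies in the 1.02 Mb stretch without a summit in any list. Peak presence at these 2 starts therefore cannot be compared. A match describes letters and is no evidence of binding, and absence says only that these letters are not in the window.

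Receptor genes of the member ligands had a peak in all 4 libraries about as often as all genes. Ccr7, Ccr9, Cxcr4 and Ccr6 had a peak in all 4 libraries, 4 of 7 receptor genes beside 60.6% of all genes. Ccr7 had 2 and 4 peaks in mTEChi and 4 and 3 in mTEClo, Ccr9 had 1 and 1 in mTEChi and 2 and 1 in mTEClo, and Ccr6, the receptor of CCL20, had 2 and 1 in mTEChi and 2 and 1 in mTEClo. Cxcr4 had 3 and 1 in mTEChi and 1 and 1 in mTEClo. Ackr3, a scavenger of CXCL12, had 3 and 1 in mTEChi and 5 and 0 in mTEClo, and Ccr4 had 4 and 5 in mTEChi and 2 and 0 in mTEClo. Cxcr3, on the X chromosome, had none in any library.

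Among 29 other chemokine genes, 11 had a peak in all 4 libraries, and among 14 other chemokine receptor genes 5 had, beside 60.6% of all genes and 50.1% of those no longer than the longest member. Windows of neighbouring chemokine genes overlap in places, so the same peak can count for more than 1 of them. Cxcl16, a membrane-bound chemokine, had 6 and 5 peaks in mTEChi and 4 and 1 in mTEClo. Cx3cl1, the fractalkine gene between Ccl22 and Ccl17, had 4 and 2 in mTEChi and 8 and 4 in mTEClo. Ccl5 had 2 and 2 in mTEChi and 2 and 1 in mTEClo, and Cxcr5, the receptor of B cells for CXCL13, had 7 and 3 in mTEChi and 2 and 2 in mTEClo. None of the 29 chemokine genes had a peak in both libraries of one state and in neither of the other. Of the 14 other receptor genes, 3 had a peak in both mTEChi libraries and in neither mTEClo library, beside 1.39% of all genes.

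These 3 receptor genes were Ccr1, Ccr2 and Ccr8, all on chromosome 9, which encode receptors of inflammatory chemokines on leukocytes. Ccr1 had 2 and 1 peaks in the mTEChi libraries, Ccr2 had 3 and 1 and Ccr8 had 2 and 2, against 0 and 0 in the mTEClo libraries for each. Together the 3 genes rested on 7 distinct summits in mTEChi replicate 1 and 4 in replicate 2. At Ccr1 the replicates shared a site, with summits at 123957043 and 123957054 and scores of 3.19 and 2.88. These were at or above 40.1% and 31.1% of their lists. At Ccr2 and Ccr8 no peaks of the replicates overlapped. The best scores in these windows were 5.59 in replicate 1 and 3.83 in replicate 2, both at Ccr8 and at or above 84.6% and 66.4% of their lists. The call of Ccr2 in replicate 2 rested on 1 peak with a score of 2.04, at or above 5.67% of that list. Over the other chemokine and receptor lists, the class held 9 genes without mTEClo replicate 1 and 5 without mTEClo replicate 2.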

How the data were processed

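Peaks of 2 mTEChi and 2 mTEClo CUT&RUN libraries were analysed, grouped by sample title. The submitters' processing notes name mm10, MACS2 2.2.7.1, SAMtools 1.9, Picard and Bowtie2 2.2.9, without settings. Each library has a deposited list of its own. The score deposited by the authors was read as −log10 of p or q, and which of them is not stated. Lists hold no read counts, so depth is unknown. The spread behind each p-value is that of these libraries alone and may be technical.

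Midpoints were assigned to RefSeq gene intervals (GRCm38.p6) on the autosomes and the X chromosome, leaving out genes on unplaced scaffolds. Shares over all genes served as background, and no test was run over the 9 genes. For single genes the exact permutation test (two-sided) was used. Counting steps were tested on simulated data. The members, lists and alternatives were chosen with earlier results of these data known; the 500 bp limit around starts, the response element motif and the copy comparison were added after the peaks were seen. Named genes were all members, neighbours as near to a peak, receptors of the member ligands and, of the other lists, by rank, at most 6 with a peak in every library and at most 4 with peaks in 1 state. Of the other chemokine genes listed, Ccl21c (on an unplaced scaffold) and Cxcl11 (a transcribed pseudogene in RefSeq) were left out as not among the protein-coding genes used. A further listed gene is not reported here, and none of the 3 enters the counts of the lists. Tools were scipy 1.17.1, pandas 2.3.3, numpy 2.4.6, matplotlib 3.10.9 and Python 3.11.15.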

Additional observations from a re-analysis of the deposited data

How the results depend on the processing

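The cause was not tested for any change given here. With only peaks above the median score, members with a peak in all 4 libraries numbered 2, shared sites 1 (Cxcl10), mTEClo-only sites 0, and other chemokine and receptor genes 8 in all libraries (main value 20) and 1 in mTEClo alone (0). With lists cut to equal length there were 2 mTEClo-only sites and 1 mTEClo-only other gene. Counting only inside gene intervals left 0 members and 2 other genes in all libraries, with 1 and 2 other genes in mTEChi and mTEClo alone. A 1 kb window gave 2 members in all libraries, 1 mTEChi-only member, and 3 and 1 other genes in all libraries and in mTEChi alone. A 5 kb window gave 11 other genes in all libraries, 1 in mTEChi alone and 1 in mTEClo alone. A 25 kb window turned the difference in members with a peak to -1 (main value 0.5), with 1 mTEClo-only member, 35 other genes in all libraries and 1 in mTEChi alone. With midpoints within 75 bp as shared, there were 0 sites in all libraries, 0 mTEChi-only and 2 mTEClo-only sites (Ccl25 and Cxcl10).

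Leaving out each library in turn gave a difference in members of -0.5 to 1.5 and in peaks of 0.5 to 6.5, 5 to 6 members in all libraries, 0 to 1 members in mTEChi alone and 0 to 1 in mTEClo alone. Sites in all libraries numbered 2 to 3, mTEChi-only sites 1 to 15 and mTEClo-only sites 2 to 11. Other genes numbered 20 to 26, 3 to 9 and 0 to 5 in the same classes; a state left with 1 library needs 1 list for a call. Replicate numbers are not said to mark shared mice or days, and deviations of libraries with the same number did not go together over 21521 genes (correlation -0.00547). With the replicate block the differences were again 0.5 members and 3.5 peaks; by pair they were -1 and 2 members and 4 and 3 peaks, and the smallest p a paired test of 2 pairs allows is 0.5 (exact). Of the main results under each alternative, 65 kept their value within the limits set and 38 moved.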

Other observations

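The 18 stretches without a summit that were longer than the one around Ccl19 and Ccl21a lay on chromosomes X (6), 7 (3), 4, 12 and 14 (2 each) and 2, 5 and 13 (1 each). They held 349 protein-coding genes. Of these, 94 had symbols that begin with Vmn (vomeronasal receptors), 23 with Zfp, 17 with Scgb, 17 with Btbd and 10 with Mup (major urinary proteins), and 160 had provisional Gm symbols. The longest, on the X chromosome, ran from 25752864 to 35661563, and those on chromosome 4 ran from 60604943 to 61713548 and from 145383837 to 147843476.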
